A study of Homo sapiens with 6 samples.

Results

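Genes for histone lysine methyltransferases, related SET-domain proteins and histone lysine demethylases were compared between HL-60 cells kept with CIP and HL-60 cells kept with DMSO. The genes were taken by symbol from the count files: KMT, NSD1, NSD2, numbered SETD and most KDM symbols, together with DOT1L, EHMT1, EHMT2, SUV39H2, SMYD2, SMYD3 and SMYD5. The rule does not take in every gene of these families. It found 42 of 43424 symbols, 26 of them methyltransferases or other SET-domain genes and 16 of them demethylases.

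HL-60 is a human acute myeloid leukaemia cell line, and CIP stands for Corydalis incisa (Thunb.) Pers., a plant. Both groups carry the genotype label WT and were cultured for 6 months. The CIP group was given CIP at concentrations raised from 2 to 20 µg/ml and is described as resistant to it, while the other group was given DMSO. There were 3 libraries per group, all from a single line, and nothing in the labels says that the cultures were separate. The p-values therefore describe spread among these libraries, part of which may be technical. The cells were prepared in bulk, so fewer cells of a type and less RNA per cell cannot be told apart.

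Histone lysine methyltransferases move methyl groups from S-adenosylmethionine to lysines of histone tails, mostly with a SET domain. The demethylases take the groups off again, either with a flavin-dependent amine oxidase domain (KDM1A and KDM1B) or with a JmjC domain that needs iron, oxygen and 2-oxoglutarate. Methylation of H3K4 and H3K36 is known for active genes, that of H3K9, H3K27 and H4K20 for silent or compacted chromatin, and several of these enzymes are known as mutated or fused genes in leukaemia, among them KMT2A and NSD1.

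Libraries held 8143657 to 10868396 counts. MPO, the myeloperoxidase of promyelocytes, had 77887, 82824 and 84917 counts in the CIP libraries and 15, 9 and 9 in the DMSO libraries, and MYC, known to be amplified in HL-60, averaged 280 ± 52.3 CPM in CIP and 41.8 ± 3.91 CPM in DMSO (CPM, counts scaled to a common library total after TMM normalization, SD, n = 3 each). Of the 7 promyelocyte and HL-60 markers 4 were called higher and 3 lower with CIP, where 73.1% of all genes tested with edgeR were called, and their summed levels were 9674 to 10234 CPM in CIP and 1644 to 1765 CPM in DMSO. The 3 lower ones are granule proteases or their relative AZU1. ELANE averaged 333 ± 32.9 CPM in CIP and 592 ± 48.7 CPM in DMSO (SD, n = 3 each). CTSG averaged 95.4 ± 4.78 CPM in CIP and 655 ± 28.1 CPM in DMSO, and AZU1 25.2 ± 4.86 CPM in CIP and 44.1 ± 5.85 CPM in DMSO. PRTN3, also a granule protease, was called higher, at 426 ± 70.5 CPM in CIP and 287 ± 18.8 CPM in DMSO. The granule proteases of this list therefore went both ways. The MPO level goes against the HL-60 label of the DMSO libraries, while the other markers of that list averaged at least 41.8 CPM in them, and the groups are named by their labels throughout. Of 10 proliferation markers 2 were called higher and 5 lower with CIP, with summed levels of 3086 to 3219 CPM in CIP and 3855 to 3932 CPM in DMSO. The 7 monocyte and macrophage markers summed to 1.74 to 4.54 CPM in CIP and 24.3 to 31.6 CPM in DMSO, with FCGR3A at 0 in all libraries and CD14 at 0 with DMSO. The 6 lymphoid markers summed to 0.706 to 1.74 CPM in CIP and 14.2 to 16.3 CPM in DMSO, with MS4A1 at 0. The 7 epithelial and fibroblast markers summed to 20.7 to 46.9 CPM in CIP and 39.3 to 105 CPM in DMSO, and none of the 6 tested was called. The DMSO sums were 105, 39.3 and 39.9 CPM, and the median log2 fold change of this list was -0.84, against -0.18 without DMSO replicate 1. With the replicate block, without robust estimation or with no low-count filter 3 of these markers were called lower. The part of these differences in the results below was not tested.

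Of the 42 genes, 39 passed the filter on low counts, and 25 of these (64.1%) were called at an adjusted p under 0.05 with edgeR's quasi-likelihood test, 15 higher and 10 lower in CIP. Among all 12844 genes tested 73.1% were called, 34.9% higher and 38.2% lower, so the share of chromatin enzymes called was no larger than that of genes at large. A call together with at least a 2-fold difference was found for 8 of the 39 (20.5%), against 39.0% of all tested genes, of which 15.0% were higher and 24.0% lower. The 5 that rose this much were SETD6, KMT2D, SMYD5, KMT2C and KMT5B, and the 3 that fell this much were KDM7A, KMT5C and SMYD3. KMT5B was under 2-fold without CIP replicate 1 or DMSO replicate 1 (log2 fold change 0.96), and SMYD5 without DMSO replicate 2 (0.88). The rest stayed past 2-fold when any 1 library was left out. Rises just past 2-fold also depend on the scaling, as library totals lower the log2 fold changes. Libraries of the groups did not overlap for 26 of the 39 genes (66.7%), against 75.5% of all tested genes. The median log2 fold change of the 39 genes was 0.11, beside -0.03 over all tested genes. When libraries were scaled by their totals alone the medians were -0.11 and -0.26 and the members split into 12 higher and 16 lower. Over all genes the calls were then 3452 higher and 5920 lower, in place of 4482 and 4912.

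**Figure D1:**
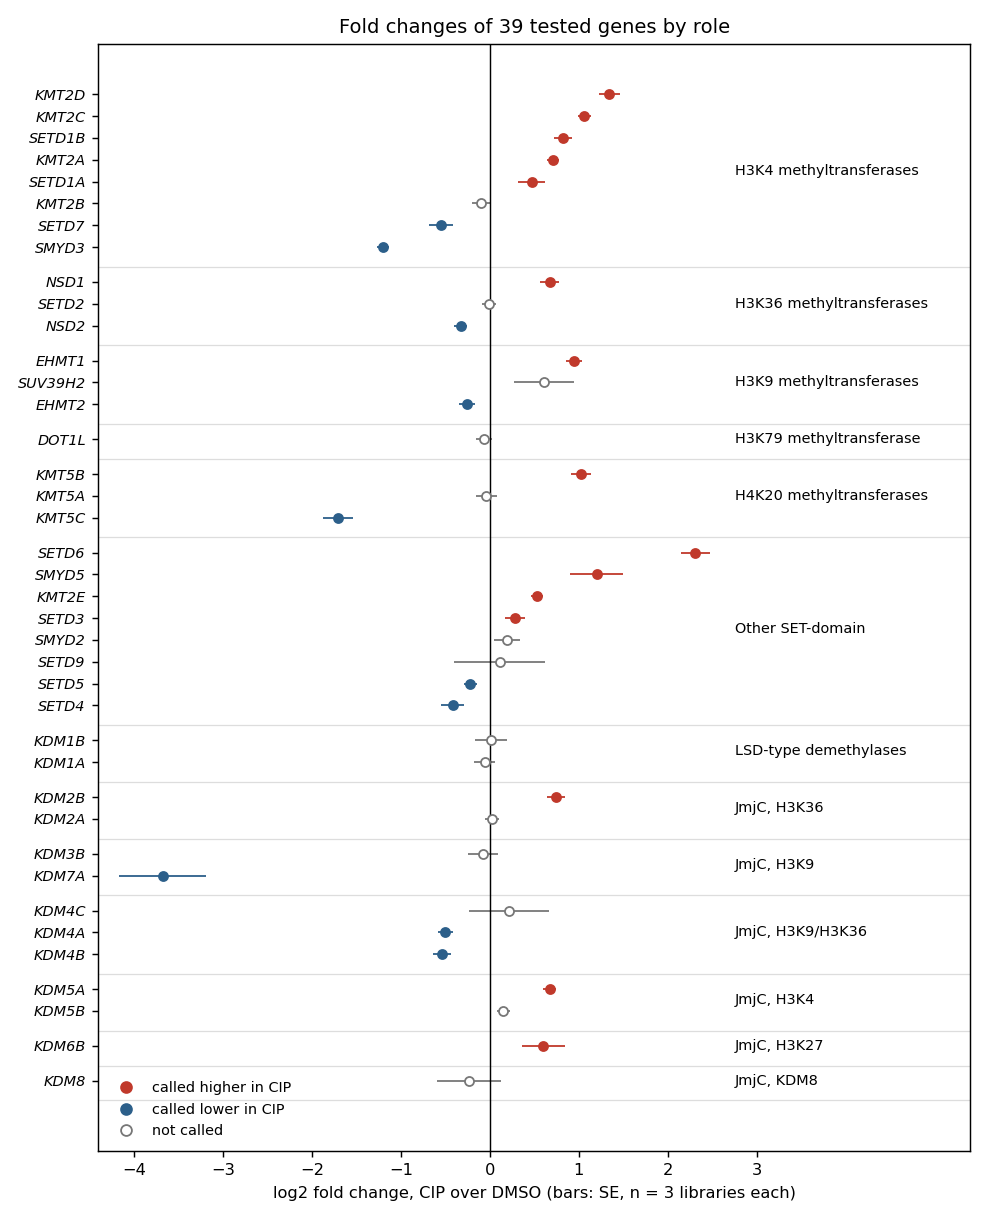
Log2 fold change of each tested gene (CIP over DMSO, horizontal axis, bars are SE, 3 libraries per group), grouped by the substrate of the enzyme. Filled points passed the test and open ones did not. Of 8 genes listed as H3K4 methyltransferases 5 lie to the right of 0 as called genes, and KDM7A stands farthest to the left at -3.68.

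The promoters of the genes with the largest changes in each direction are printed to show the sequence at their start sites, SETD6 and KMT2D for the rises and KDM7A and KMT5C for the falls. They come from RefSeq (GRCh38.p14), run from 250 bases before the gene's start to 50 after it, and are written 5′ to 3′ on the gene's strand. The window of SETD6 does not match the gene start given below, 58515479, and reaches further into the gene. Capitals mark CACGTG, the E-box bound by MYC, and CCGGAAGT or its reverse complement, an ETS motif. The E2F motif TTTCCCGC was searched on both strands as well, and the motifs do not overlap each other in the sequences printed.
SETD6 (chr16:58515267-58515566, plus strand): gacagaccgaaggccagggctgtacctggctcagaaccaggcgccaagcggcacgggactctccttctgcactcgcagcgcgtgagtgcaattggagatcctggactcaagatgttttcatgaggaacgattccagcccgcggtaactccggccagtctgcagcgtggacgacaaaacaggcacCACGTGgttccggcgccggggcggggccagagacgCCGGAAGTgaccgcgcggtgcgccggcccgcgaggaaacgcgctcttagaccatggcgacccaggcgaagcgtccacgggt
KMT2D (chr12:49060745-49061044, minus strand): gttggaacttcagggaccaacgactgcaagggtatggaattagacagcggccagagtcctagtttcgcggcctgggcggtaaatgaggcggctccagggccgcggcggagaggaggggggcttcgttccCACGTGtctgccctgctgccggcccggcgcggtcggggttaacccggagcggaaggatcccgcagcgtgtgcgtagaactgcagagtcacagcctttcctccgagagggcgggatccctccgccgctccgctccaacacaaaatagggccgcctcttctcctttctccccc
KDM7A (chr7:140176934-140177233, minus strand): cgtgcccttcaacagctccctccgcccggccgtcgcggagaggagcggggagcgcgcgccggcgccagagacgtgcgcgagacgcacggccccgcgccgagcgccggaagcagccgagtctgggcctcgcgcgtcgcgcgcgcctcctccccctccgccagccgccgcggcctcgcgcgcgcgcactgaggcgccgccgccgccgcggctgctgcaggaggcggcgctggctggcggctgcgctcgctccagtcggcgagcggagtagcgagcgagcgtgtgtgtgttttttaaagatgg
KMT5C (chr19:55339626-55339925, plus strand): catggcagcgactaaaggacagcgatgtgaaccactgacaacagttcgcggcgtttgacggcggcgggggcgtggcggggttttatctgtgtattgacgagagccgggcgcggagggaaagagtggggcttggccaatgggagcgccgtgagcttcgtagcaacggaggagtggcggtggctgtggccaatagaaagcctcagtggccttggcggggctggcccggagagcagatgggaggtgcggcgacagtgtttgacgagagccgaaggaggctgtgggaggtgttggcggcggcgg
Of these, SETD6 holds CACGTG and CCGGAAGT and KMT2D holds CACGTG, while KDM7A and KMT5C hold neither of these nor TTTCCCGC in this window. Promoter sequences matched 39 of the 42 genes. CACGTG was found in 6 of them (15.4%), against 7.43% of 27305 promoters of the same length, and the 6 genes were SETD6, KMT2D and NSD1, which rose, EHMT2 and KDM4B, which fell, and KDM4C, which did not pass. CCGGAAGT was found in 2 (5.13%, against 4.44%) and TTTCCCGC in 2 (5.13%, against 1.66%). The members' promoters had a median of 66.7% G and C, against 58.3% over all promoters. A match describes the letters of the window and does not show binding.

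Most H3K4 methyltransferases of the large KMT2 and SETD1 complexes were higher with CIP. Of these 6 genes 5 rose, 0 fell and KMT2B did not pass, where 34.9% of all tested genes were called higher and 38.2% lower, and their summed level was 657, 671 and 665 CPM in the CIP libraries and 396, 380 and 393 CPM in the DMSO libraries. The sums of the groups did not overlap. With library totals alone 4 were called higher, 1 lower (KMT2B, log2 fold change -0.33) and SETD1A was not called, at 0.24.

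KMT2D (chromosome 12, 49018978 to 49060794, GRCh38), which places monomethyl marks at enhancers, stood at 57.9, 62.5 and 61.4 CPM in CIP and 23.5, 28.9 and 19.2 CPM in DMSO. Its log2 fold change was 1.34 ± 0.12 (adjusted p = 5.7e-12, edgeR), where log2 fold changes are given ± SE throughout. Each CIP library was above each DMSO library by a wide margin, and DDN-AS1, which overlaps the end of KMT2D, had 22 counts over the CIP libraries and 16 over the DMSO libraries. KMT2C (chromosome 7, 152134925 to 152436003), its close paralog in the same kind of complex, stood at 177, 182 and 173 CPM in CIP and 91.5, 82.3 and 81.1 CPM in DMSO (log2 fold change 1.06 ± 0.07, adjusted p = 7.1e-15, edgeR). Stretches of KMT2C have copies elsewhere in the genome, which can make its counts less certain. Whether they touch the part read here was not tested. Both of these enhancer methyltransferases were higher in every CIP library than in any DMSO library.

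KMT2A (chromosome 11, 118436492 to 118526832), the MLL gene that is fused in some acute leukaemias, stood at 288, 301 and 295 CPM in CIP and 186, 168 and 186 CPM in DMSO. Its log2 fold change was 0.71 ± 0.07 (edgeR adjusted p = 1.3e-11), and the groups lay apart. KMT2B, the paralog of KMT2A, stood at 46.3, 42.2 and 49.5 CPM in CIP and 46.1, 48.1 and 53.8 CPM in DMSO and did not pass (log2 fold change -0.10 ± 0.10, edgeR adjusted p = 0.39). Its libraries overlapped between the groups, and its end overlaps IGFLR1, which fell (-0.72 ± 0.18, edgeR adjusted p = 7.1e-04). SETD1B, which lays down trimethyl marks at promoters, stood at 62.1, 62.6 and 60.1 CPM in CIP and 34.2, 36.6 and 33.6 CPM in DMSO (log2 fold change 0.82 ± 0.10, edgeR adjusted p = 5.9e-09). Its paralog SETD1A stood at 26, 20.3 and 25.6 CPM in CIP and 15.5, 16.4 and 19.9 CPM in DMSO (0.47 ± 0.15, edgeR adjusted p = 0.0068). The lowest CIP library and the highest DMSO library of SETD1A were close together, while those of SETD1B were far apart.

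SMYD3 and SETD7, the other genes listed here as H3K4 enzymes, went the other way. SMYD3 (chromosome 1, 245749347 to 246507279), a SET and MYND domain enzyme that also methylates the kinase MAP3K2, stood at 92.7, 82.3 and 87.4 CPM in CIP and 198, 199 and 207 CPM in DMSO. It fell by 1.20 on the log2 scale (SE 0.07, edgeR adjusted p = 1.2e-16), with tight and separate groups. SETD7, a monomethyltransferase with many non-histone substrates, stood at 20.4, 20 and 26.1 CPM in CIP and 33.4, 28 and 36 CPM in DMSO (log2 fold change -0.55 ± 0.14, edgeR adjusted p = 7.1e-04). The highest CIP library lay just under the lowest DMSO library.

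**Figure D2:**
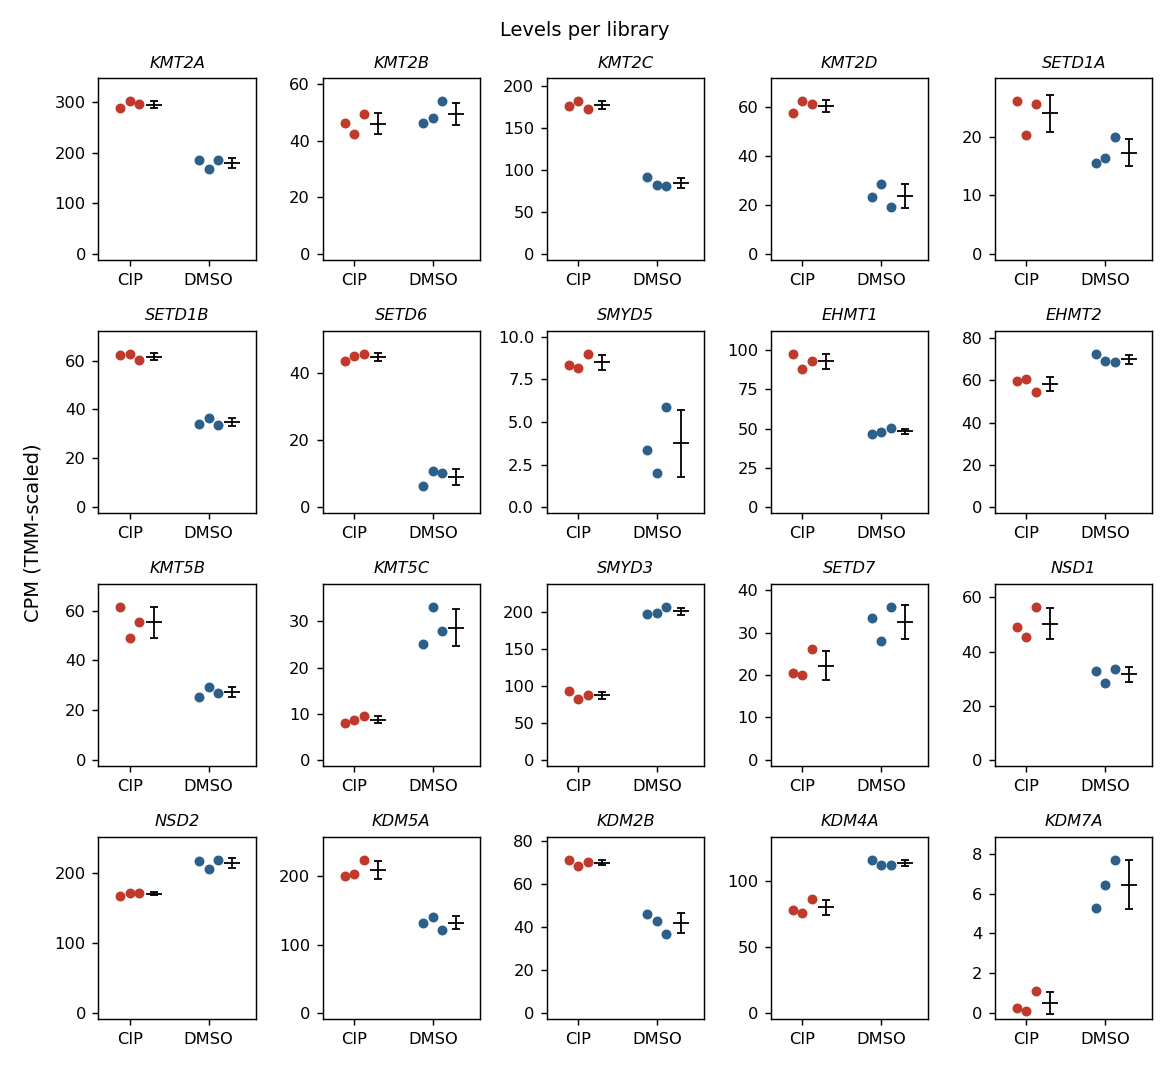
Level of 20 genes in each library (TMM-scaled CPM, linear axis, points are libraries, bars are mean and SD of 3), CIP on the left of each panel and DMSO on the right. SETD6 stands at 43.5 to 45.6 CPM in CIP and 6.24 to 10.7 CPM in DMSO, while SMYD3 and KMT5C lie lower in CIP and KMT2B overlaps.

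Enzymes that act on repressive H4K20 and H3K9 marks split within their families. KMT5B and KMT5C, the paralogs that add further methyl groups to monomethylated H4K20, moved in opposite directions. KMT5B (chromosome 11, 68154863 to 68213648) stood at 61.4, 49 and 55.4 CPM in CIP and 25.3, 29.3 and 26.8 CPM in DMSO, a difference of 1.02 ± 0.11 on the log2 scale (edgeR adjusted p = 8.1e-10). KMT5C (chromosome 19, 55339876 to 55348121) stood at 7.98, 8.7 and 9.58 CPM in CIP and 25, 33.1 and 27.9 CPM in DMSO, a difference of -1.71 ± 0.17 on that scale (edgeR adjusted p = 4.2e-11). KMT5A, which places the first methyl group on H4K20 and peaks in mitosis, stood at 30.8, 32.7 and 33.3 CPM in CIP and 36.7, 29.2 and 33.4 CPM in DMSO and did not pass (edgeR adjusted p = 0.79).

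EHMT1 (GLP) and EHMT2 (G9a), which work as a heterodimer on H3K9, also differed in direction. EHMT1 (chromosome 9, 137619005 to 137836127) stood at 97.5, 87.8 and 93.3 CPM in CIP and 46.8, 47.6 and 50.3 CPM in DMSO (log2 fold change 0.94 ± 0.09, edgeR adjusted p = 1.1e-11). EHMT2 (chromosome 6, 31879759 to 31897698) stood at 59.7, 60.7 and 54.5 CPM in CIP and 72.3, 68.9 and 68.6 CPM in DMSO (-0.26 ± 0.09, edgeR adjusted p = 0.0089). The EHMT2 difference is small beside that of EHMT1, and its adjusted p was 0.062 without CIP replicate 3. SUV39H2, which trimethylates H3K9 in constitutive heterochromatin, had 42, 51 and 42 counts in CIP and 35, 41 and 17 in DMSO and did not pass (edgeR adjusted p = 0.11), although its CPM values did not overlap. Its end overlaps DCLRE1C, which fell (-0.79 ± 0.16, edgeR adjusted p = 3.1e-05).

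Among H3K36 methyltransferases, NSD1 was higher and NSD2 lower. NSD1 stood at 49, 45.3 and 56.4 CPM in CIP and 32.7, 28.5 and 33.6 CPM in DMSO (log2 fold change 0.67 ± 0.11, edgeR adjusted p = 3.0e-06). NSD2, a dimethyltransferase that is overexpressed through a translocation in some myelomas, stood at 168, 172 and 172 CPM in CIP and 218, 206 and 219 CPM in DMSO (-0.33 ± 0.07, edgeR adjusted p = 4.4e-05). SETD2, which trimethylates H3K36, did not pass, at 88 ± 4.75 CPM in CIP and 88.5 ± 4.6 CPM in DMSO (SD, n = 3 each, edgeR adjusted p = 0.93). DOT1L, the H3K79 methyltransferase that KMT2A fusions recruit, did not pass either, at 52.8 ± 2.77 CPM in CIP and 55.4 ± 1.03 CPM in DMSO (edgeR adjusted p = 0.53). With library totals alone SETD2 (log2 fold change -0.24) and DOT1L (-0.30) were called lower.

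The largest rise among the 39 tested genes was that of SETD6. SETD6 (chromosome 16, 58515479 to 58523842), which methylates the NF-kB subunit RELA, stood at 43.5, 45.1 and 45.6 CPM in CIP and 6.24, 10.7 and 10.1 CPM in DMSO. Its log2 fold change was 2.31 ± 0.16, or 4.96-fold (edgeR adjusted p = 3.5e-15), and no DMSO library came near a CIP library. The end of SETD6 overlaps CNOT1, a deadenylase subunit gene on the opposite strand that rose by 0.68 ± 0.07 on the log2 scale (edgeR adjusted p = 2.6e-10). The strand setting of the counting is not given, so reads of the overlap cannot be told apart.

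SMYD5, an H4K20 and H3K36 enzyme in some reports, had 72, 80 and 89 counts in CIP and 34, 21 and 52 in DMSO (log2 fold change 1.20 ± 0.30, edgeR adjusted p = 7.5e-04). Its DMSO libraries varied more than its CIP libraries. KMT2E, a KMT2 paralog without known histone methyltransferase activity, stood at 224, 219 and 235 CPM in CIP and 165, 156 and 148 CPM in DMSO (0.53 ± 0.07, edgeR adjusted p = 2.0e-08), and its end overlaps SRPK2, which fell (-0.59 ± 0.08, edgeR adjusted p = 1.3e-07). SETD3, the actin histidine methyltransferase, was called higher (0.28 ± 0.11, edgeR adjusted p = 0.023) although a DMSO library reached the lowest CIP library at 42.6 CPM. That call was lost with upper-quartile scaling, library totals, DESeq2 and without CIP replicate 3, DMSO replicate 2 or DMSO replicate 3 (adjusted p = 0.055 to 0.72).

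SETD5, mutated in intellectual disability, stood at 287, 285 and 317 CPM in CIP and 353, 362 and 324 CPM in DMSO (-0.22 ± 0.07, edgeR adjusted p = 0.0030). SETD4 stood at 22.5, 20.8 and 22.1 CPM in CIP and 31.1, 29.2 and 27.3 CPM in DMSO (-0.42 ± 0.13, edgeR adjusted p = 0.0050). Both fell, with groups that did not overlap. SMYD2, which methylates p53 among other proteins, stood at 25.5 ± 4.05 CPM in CIP and 22.3 ± 2.48 CPM in DMSO and did not pass (edgeR adjusted p = 0.23). SETD9 had 11 to 19 counts per CIP library and 6 to 20 per DMSO library, too few to show a small difference (edgeR adjusted p = 0.85).

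Of 13 tested demethylases 6 were called, 3 higher and 3 lower, and of 26 tested methyltransferases and other SET-domain genes 19 were called, 12 higher and 7 lower. These are 46.2% of the demethylases and 73.1% of the others, beside 73.1% of all tested genes, and the difference between the shares was not tested. KDM1A (LSD1), the H3K4 demethylase of the CoREST complex and a drug target in acute myeloid leukaemia, stood at 37.5, 37.3 and 30.7 CPM in CIP and 36.6, 31.3 and 42.2 CPM in DMSO. It did not pass (log2 fold change -0.06 ± 0.12, edgeR adjusted p = 0.66), and neither did its paralog KDM1B, at 13.8 ± 1.55 CPM in CIP and 13.7 ± 2.07 CPM in DMSO (edgeR adjusted p = 0.95). With library totals alone KDM1A was called lower (-0.29, adjusted p = 0.036).

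Of the JmjC genes, KDM7A fell most. KDM7A (chromosome 7, 140084746 to 140176983), which removes dimethyl marks from H3K9 and H3K27, had 2, 1 and 11 counts in CIP and 53, 67 and 68 in DMSO. Its levels were 0.231, 0.102 and 1.11 CPM in CIP and 5.25, 6.42 and 7.69 CPM in DMSO, a difference of -3.68 ± 0.49 on the log2 scale (edgeR adjusted p = 4.0e-08). The 11 counts of CIP replicate 3 are most of the CIP reads, and without that library the log2 fold change was -5.18. Each CIP library lay below each DMSO library.

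KDM4A and KDM4B, which act on trimethylated H3K9 and H3K36, both fell. KDM4A stood at 78.3, 75.5 and 86 CPM in CIP and 116, 112 and 112 CPM in DMSO (-0.50 ± 0.08, edgeR adjusted p = 7.8e-07). KDM4B stood at 48.2, 41.1 and 52 CPM in CIP and 61.1, 69.7 and 74.6 CPM in DMSO (-0.54 ± 0.10, edgeR adjusted p = 1.7e-05). Groups were separate for both genes. KDM4C had 17 to 31 counts per CIP library and 11 to 40 per DMSO library and did not pass (edgeR adjusted p = 0.68). KDM4D had 8, 1 and 2 counts in CIP and 0, 1 and 0 in DMSO, a ratio of 11.4 with an exact 95% counting interval of 1.66 to 491, and was not tested. KDM4E and KDM4F had 0 counts in all libraries, where 3 counts over a group, the limit that a count of 0 allows, correspond to 0.106 CPM in CIP and 0.102 CPM in DMSO.

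KDM5A, a demethylase of trimethylated H3K4, stood at 201, 203 and 224 CPM in CIP and 132, 141 and 122 CPM in DMSO (0.67 ± 0.07, edgeR adjusted p = 4.4e-10). KDM5B, its paralog, stood at 125, 130 and 141 CPM in CIP and 122, 112 and 122 CPM in DMSO and did not pass (0.15 ± 0.07, edgeR adjusted p = 0.064). KDM5A was clearly apart between the groups, while the KDM5B groups lay next to each other. KDM2B, a demethylase that recruits a Polycomb complex to CpG islands, stood at 71.1, 68.5 and 69.9 CPM in CIP and 46.1, 42.6 and 36.8 CPM in DMSO (0.74 ± 0.10, edgeR adjusted p = 3.8e-08). Its end overlaps RNF34, which also rose (0.70 ± 0.10, edgeR adjusted p = 9.3e-08). KDM2A did not pass, at 88.6 ± 2.53 CPM in CIP and 87.2 ± 4.37 CPM in DMSO (edgeR adjusted p = 0.80).

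KDM6B (JMJD3), an H3K27 demethylase induced in inflammatory macrophages, had 81, 114 and 78 counts in CIP and 54, 81 and 52 in DMSO. Its call (0.60 ± 0.24, edgeR adjusted p = 0.028) was lost with library totals, with DESeq2 and without CIP replicate 2, DMSO replicate 1 or DMSO replicate 3 (adjusted p = 0.078 to 0.17). KDM3B, which removes methyl groups from H3K9, stood at 16.9 ± 2.22 CPM in CIP and 17.9 ± 2.25 CPM in DMSO and did not pass (edgeR adjusted p = 0.69). KDM8, a JmjC protein whose histone activity is disputed, stood at 3.28 ± 0.287 CPM in CIP and 3.9 ± 1.56 CPM in DMSO (edgeR adjusted p = 0.56).

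Ratios of paralogs within a library do not depend on how libraries are scaled. For 7 of 10 paralog ratios, which were chosen after values were seen, the libraries of the groups did not overlap. Among single genes the CPM of the groups did not overlap for 75.5% of all those tested. No such rate was computed for ratios of other gene pairs, so nothing is read from the count of separate ratios. An exact permutation test of 3 against 3 libraries cannot go below p = 0.10, so these are given as separations. The count ratio of KMT5B to KMT5C was 7.7, 5.64 and 5.78 in CIP and 1.01, 0.887 and 0.96 in DMSO, a mean difference of 2.73 on the log2 scale. The EHMT1 to EHMT2 ratio was 1.63, 1.45 and 1.71 in CIP and 0.648, 0.691 and 0.733 in DMSO, above 1 in every CIP library and below 1 in every DMSO library. The NSD1 to NSD2 ratio was 0.292, 0.264 and 0.327 in CIP and 0.15, 0.138 and 0.153 in DMSO. The KMT2A to KMT2B, KDM2B to KDM2A and KDM5A to KDM5B ratios were also higher with CIP, by 0.82, 0.72 and 0.52 on the log2 scale. The ratios of KMT2C to KMT2D, KDM1A to KDM1B and KDM4A to KDM4B overlapped between the groups, and that of SETD1A to SETD1B was lower with CIP, by 0.35 on the log2 scale.

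**Figure D3:**
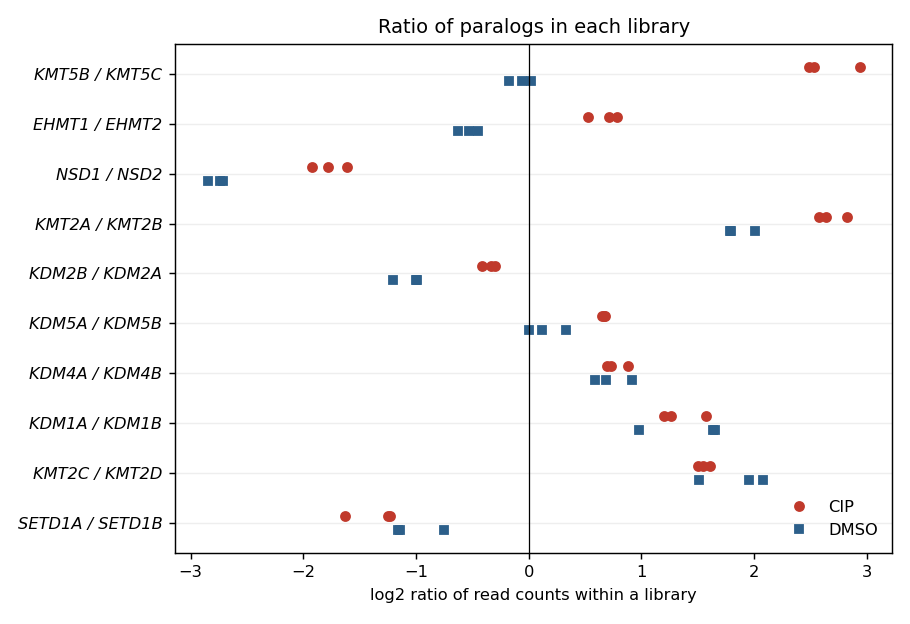
Log2 ratio of the read counts of 2 paralogs in each library (horizontal axis), with CIP libraries as circles above DMSO libraries as squares. KMT5B over KMT5C is at 2.49 to 2.94 in CIP and -0.17 to 0.02 in DMSO, and the EHMT1 over EHMT2 ratio lies on opposite sides of 0.

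Genes of the complexes and cofactors that these enzymes use were read from 5 lists of 67 genes, of which 65 were tested. Of these 31 (47.7%) were called higher and 18 (27.7%) lower, against 34.9% higher and 38.2% lower over all tested genes. In either direction 75.4% were called, against 73.1% over all genes. The same shares over all genes apply to each list below, and differences between shares were not tested. Of 15 COMPASS and menin subunits 7 rose and 2 fell, while 6 missed the threshold (median 0.17 on the log2 scale). Not all of these subunits are shared by every H3K4 complex. CXXC1, which brings the SETD1 complexes to CpG islands, stood at 201, 207 and 234 CPM in CIP and 88.3, 95.2 and 83.9 CPM in DMSO (1.26 ± 0.08, edgeR adjusted p = 1.2e-16). PSIP1 (LEDGF), which tethers menin and KMT2A to chromatin, stood at 67.4, 74.1 and 81.5 CPM in CIP and 171, 160 and 152 CPM in DMSO (-1.11 ± 0.08, edgeR adjusted p = 1.5e-14). ASH2L, the other of the 2 that fell, stood at 14.3, 15.6 and 11.9 CPM in CIP and 29.8, 26.9 and 23.1 CPM in DMSO (-0.93 ± 0.16, edgeR adjusted p = 2.7e-06). Subunits of the H3K4 complexes therefore moved both ways. With library totals alone the list split into 5 higher, 5 lower and 5 not past the test.

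Of 11 genes of DOT1L's partners and the super elongation complex 7 rose (63.6%) and 1 fell (9.09%), while 3 missed the threshold. Over all tested genes 34.9% were called higher and 38.2% lower. The median log2 fold change of the list was 0.73, or 0.50 with library totals. MLLT3 (AF9), a frequent KMT2A fusion partner, had 97, 82 and 60 counts in CIP and 40, 30 and 26 in DMSO (1.38 ± 0.30, edgeR adjusted p = 9.9e-05). ELL, an elongation factor, stood at 46.3, 38 and 36.1 CPM in CIP and 16.3, 17.9 and 17.3 CPM in DMSO (1.22 ± 0.13, edgeR adjusted p = 5.4e-10). AFF3, the gene of the list that fell, had 0, 2 and 0 counts in CIP and 16, 31 and 19 in DMSO. Its change was the largest of the list, on few reads (-4.75 ± 0.82, edgeR adjusted p = 4.4e-06). DOT1L itself did not pass, as given above, while MLLT3 and ELL were higher in each CIP library than in any DMSO library.

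Of 10 tested CoREST and GFI1 partners of KDM1A 5 rose, 2 fell and 3 did not pass (median 0.20, or -0.03 with library totals). GSE1 stood at 91.9 ± 4.01 CPM in CIP and 46.7 ± 3.83 CPM in DMSO (0.98 ± 0.09, edgeR adjusted p = 9.5e-12), and ZMYM2, a zinc finger protein of the complex, at 49.3 ± 1.59 CPM in CIP and 25.2 ± 2.55 CPM in DMSO (0.96 ± 0.11, edgeR adjusted p = 3.7e-09). Of 12 genes of H3K9 complexes and readers 7 rose, 4 fell and 1 did not pass (median 0.34, or 0.11 with library totals). ATF7IP, the stabilising partner of SETDB1, stood at 72.4 ± 5.74 CPM in CIP and 33.5 ± 1.82 CPM in DMSO (1.11 ± 0.10, edgeR adjusted p = 5.7e-12), and its paralog ATF7IP2 at 39.2 ± 3.55 CPM in CIP and 10.8 ± 1.82 CPM in DMSO (1.87 ± 0.15, edgeR adjusted p = 2.5e-13).

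Of 17 genes listed for the turnover of 2-oxoglutarate, succinate, fumarate and S-adenosylmethionine 5 rose, 9 fell and 3 did not pass (median -0.16, or -0.39 with library totals). Not every gene of the list acts on these metabolites directly. IDH1, the cytosolic enzyme that makes 2-oxoglutarate from isocitrate, stood at 38.4, 39.7 and 41.4 CPM in CIP and 152, 165 and 173 CPM in DMSO (-2.04 ± 0.08, edgeR adjusted p = 2.2e-21). SDHD, a succinate dehydrogenase subunit, had 64, 206 and 104 counts in CIP and 70, 40 and 44 in DMSO (1.31 ± 0.33, edgeR adjusted p = 0.0018). IDH1 was far apart between tight groups, while SDHD, which has processed pseudogene copies that can share its reads, varied widely among the CIP libraries.

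**Figure D4:**
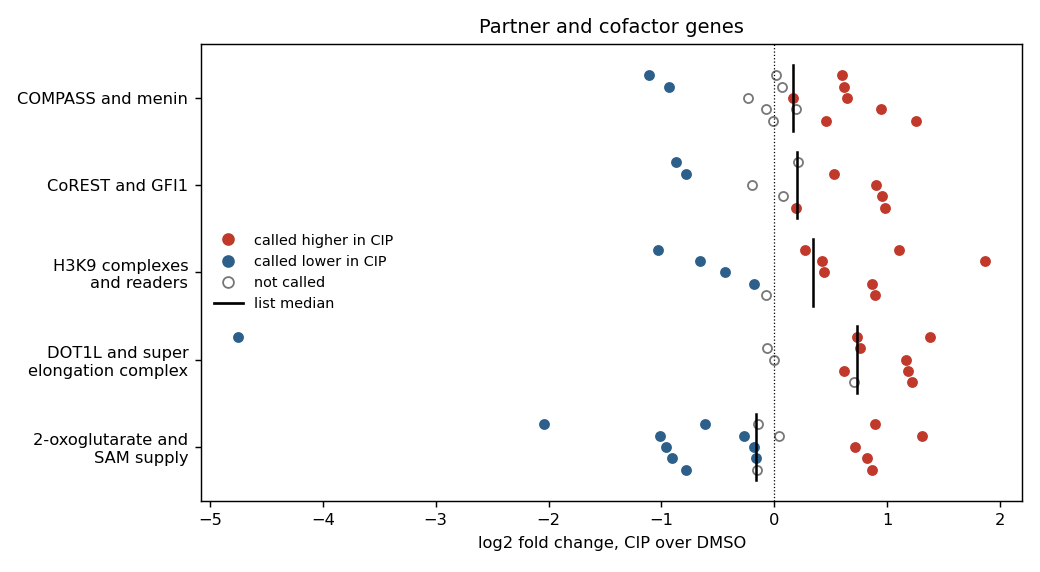
Log2 fold change (CIP over DMSO) of the 65 tested partner and cofactor genes, 1 row per list, with the list median as a vertical line. Medians lie between -0.16 for the cofactor supply list and 0.73 for the DOT1L and super elongation complex list.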

How the data were processed

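Gene expression was measured with Lexogen QuantSeq, which reads near the 3' end of transcripts, in 3 CIP and 3 DMSO libraries, grouped by their titles. The authors deposited whole-number counts per gene symbol, 1 library per file and not normalized, per the file headers and values. Tools listed in the submitters' processing notes are STAR, HTSeq, fastp and bcl2fastq 2.20.0.422, with the build GRCh38. Not given in the sources used here are the annotation, strand setting, treatment of multiply mapping reads and use of molecular identifiers. Intervals and floors therefore cover counting error only.

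All genes were tested with edgeR 4.0.16 in R 4.3.3 (2-sided quasi-likelihood test, robust, filterByExpr, TMM scaling, no covariate beside group, Benjamini-Hochberg adjustment over 12844 genes, called at an adjusted p under 0.05). CPM values are computed from TMM-scaled totals (factors 0.914 to 0.93 in CIP and 1.07 to 1.09 in DMSO), and the SE is the log2 fold change divided by the square root of F. The main test was tried on simulated data in which few genes changed. Most genes were called in the real data, so the simulation does not test the scaling. No 2 replicates were alike within sampling noise (chi-square over genes per degree of freedom 3.9 to 8.14). The members, lists and tests were chosen with earlier results of these data known. Every member is named. Of each partner list the 2 called genes with the largest change at 5 CPM or more are named, and of the markers MPO, MYC and genes at 0. The result of 1 marker list is not reported here. CD14, ELANE, AZU1, CTSG, PRTN3, AFF3, ASH2L and the 10 paralog ratios were chosen after values were seen. Alternatives were RLE, upper-quartile and library-total scaling, no filter, a filter of 1 CPM in 3 libraries, DESeq2 1.42.0, limma-voom (limma 3.58.1), fitting without robust estimation, thinning, a replicate block and leaving out each library. Positions matched RefSeq (GRCh38.p14) for 42 of 42 genes. By GENCODE release 29 (GRCh38), 14 members overlap another gene within their last 1000 bases.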

Additional observations from a re-analysis of the deposited data

How the results depend on the processing

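Of the 25 calls among the chromatin enzymes, 21 stayed on the same side of the threshold with the same sign under all 16 alternatives. The exceptions were EHMT2, KDM6B, SETD1A and SETD3. No called gene changed sign. Of the 14 genes not called, 7 were called under at least 1 alternative, 6 of them with library totals alone, among them KDM2A at -0.21 and KMT5A at -0.27. With library totals the lower calls were 16 in place of 10, which follows from the shift of all genes, whose median was then -0.26 and not -0.03 on the log2 scale, and that of the members -0.11 and not 0.11.

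Among genes not called, small log2 fold changes turned sign. KDM1B stood at -0.01 with RLE scaling, -0.03 with upper-quartile scaling, -0.21 with library totals and -0.05 after thinning. KDM2A was at -0.02 with upper-quartile scaling. With library totals KDM4C was at -0.01, KDM5B at -0.08, SETD9 at -0.11 and SMYD2 at -0.04, and SETD2 was at 0.01 with no filter. When libraries were left out in turn, KDM1A ranged from -0.17 to 0.04, KDM1B from -0.10 to 0.12, KDM2A from -0.01 to 0.06, KDM3B from -0.18 to 0.02, KDM4C from -0.13 to 0.82, KDM8 from -0.45 to 0.11, KMT5A from -0.13 to 0.04, SETD2 from -0.06 to 0.03 and SETD9 from -0.22 to 0.38. Leaving out libraries gave 13 to 16 higher and 9 to 10 lower calls among the members. With no low-count filter and with DESeq2 the medians of all tested genes were -0.20 and -0.23. Both tested 22384 genes in place of 12844, and DESeq2 also changes the scaling and the model.

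Same-numbered libraries did not deviate together (correlations of deviations -0.0271 to -0.00992), and differently numbered ones reached at most 0.0282. A strong deviation shared by number was therefore not seen. With deviations taken from means of 3 libraries, these values cannot show whether the numbers pair samples. No library correlated best with its own number. The replicate block left 15 higher and 10 lower calls among the members and 4306 higher and 4755 lower over all genes. KDM4C, KDM7A, SETD9 and SUV39H2 rest on few counts, so small differences in them could not be detected at this depth.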
